A study of Mus musculus with 16 samples.

Results

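A group of 35 genes that encode non-collagen matrix proteins, the enzymes that remodel them, and the Yap/Taz pathway was followed in mouse liver RNA. Members were taken by gene symbol, with earlier results of these data known, and all 35 were among the 23420 gene rows counted. They fall into 9 role groups, from Yap and Taz with their targets to the matrix metalloproteinases and their inhibitors. Liver RNA came from 16 male wild-type C57BL/6J mice, 4 in each of 4 groups: FEN-HFD for 20 weeks, HFD for 20 weeks, FEN-HFD for 7 days and HFD for 7 days. All 16 mice received a high-fat diet (HFD) of 45% fat, and FEN-HFD is that diet with 0.04% fenretinide, a synthetic retinoid. The mice of the 2 durations were different animals of an age that the labels do not give, and duration, age and cohort cannot be told apart. Livers of lean mice were not analysed here, so that no level below can be set against a mouse on a normal diet.

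Yap and Taz (the product of Wwtr1) are transcriptional co-activators that enter the nucleus when the Hippo kinases are quiet or the cell is under mechanical tension. There they bind TEAD factors and switch on genes such as Ctgf and Cyr61, the older symbols of Ccn2 and Ccn1, whose secreted products act on matrix and adhesion. In the injured liver, transforming growth factor beta (TGF-beta) and platelet-derived growth factor turn stellate cells and portal fibroblasts into contractile myofibroblasts, which lay down fibronectin, proteoglycans and collagen, crosslink them with lysyl oxidases, and shift the balance between metalloproteinases and their inhibitors (Timps).

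Libraries held between 19218230 and 32546829 counts. The library of FEN-HFD mouse 29 (20 weeks) stood apart, with 53.1% of its counts on Rn45s, the precursor of ribosomal RNA, against 0.466% to 1.46% in the other 15. Alb, which encodes the hepatocyte product albumin and is 1 of 6 hepatocyte markers read, lay between 28150.4 and 54166.9 CPM (counts scaled to library size) over the 16 mice. Levels below are in CPM, scaled by TMM factors over all 16 libraries, and are listed by mouse in the order 21, 22, 24, 29 (FEN-HFD, 20 weeks), 25, 28, 33, 45 (HFD, 20 weeks), 61, 62, 65, 66 (FEN-HFD, 7 days) and 142, 143, 144, 146 (HFD, 7 days). Since counts are not divided by gene length, levels are compared between mice and not between genes. Fold changes are on the log2 scale and come from quasi-likelihood fits in edgeR (adjusted p: Benjamini and Hochberg's correction across every gene tested). A gene is called higher or lower when the adjusted p is under 0.05.

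In HFD livers at 20 weeks against HFD livers at 7 days, 4 of the 33 members tested were higher (Wwtr1, Ctgf, Tagln and Thbs1) and 0 were lower. Over all 13255 genes of that comparison, 4.78% were called higher and 2.73% lower. The median log2 fold change of the members was 0.47, against -0.01 over all genes, and 29 of the 33 values were positive. The members numbered 14 higher and 0 lower at an unadjusted p under 0.05, where 13.3% and 12.2% of all genes passed. In 5 of the members tested (Wwtr1, Ctgf, Tagln, Cyr61 and Mmp14) every HFD mouse of 20 weeks was above every HFD mouse of 7 days, and in 0 below, as in 9.63% and 7.33% of all genes tested. Timp1, too low for the test, was also above without overlap. DESeq2 called 9 members higher (8.03% of all genes) and limma-voom 4 (5.76%), both with 0 lower. Without mouse 33 edgeR called 9 higher (4.15% of all genes), and without any 1 of mice 25, 28, 142 and 146 it called 2 (2.54% of all genes without mouse 25, the lowest of these). Markers of some other cells differed in the same mice. The summed level of 8 sinusoidal endothelial markers was 380 to 427 CPM in HFD livers at 20 weeks and 442 to 491 CPM at 7 days, without overlap. By edgeR 0 of these 8 were called, and 0 were higher and 4 lower at an unadjusted p under 0.05. Of 6 hepatocyte markers, 3 were called lower (Cps1, Serpina1a and Apoa1) and 0 higher by edgeR, and their summed level was 67015 to 77609 CPM in HFD livers at 20 weeks and 63921 to 80302 CPM at 7 days. Of 8 Kupffer cell and macrophage markers, 2 were called lower (Clec4f and Vsig4), and their summed level was 394 to 461 CPM at 20 weeks and 496 to 1097 CPM at 7 days, without overlap. Their part in the levels of the members was not tested.

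Fenretinide for 20 weeks was accompanied by a lower Lum and a higher Mmp9 among the 31 members that could be tested. Of all 13010 genes, 1.09% were called lower and 0.769% higher in FEN-HFD livers than in HFD livers at 20 weeks. The median of the members was -0.30, against 0.01 over all genes, and 25 of the 31 fold changes were negative. At an unadjusted p under 0.05, 7 members were lower (Lum, Tagln, Timp2, Loxl1, Ctgf, Acta2 and Pdgfrb) and 1 was higher, where 10% and 8.5% of all genes passed. Among the members tested, all 4 FEN-HFD mice were below all 4 HFD mice for 3 (Lum, Ctgf and Tagln) and above them for 1 (Mmp9), as for 6.8% and 6% of all genes tested. Ankrd1, too low for the test, was also below without overlap. The number of members lower depended on the tool and on single mice: DESeq2 gave 6 (4.51% of all genes lower), limma-voom 9 (4.95%) and edgeR without mouse 29 4 (1.67%), while edgeR without mouse 21 or without mouse 25 gave 0 lower and 0 higher (0.152% and 0.252% of all genes lower). The summed level of the 6 hepatocyte markers was 51270 to 64529 CPM in FEN-HFD livers and 67015 to 77609 CPM in HFD livers at 20 weeks, without overlap. By edgeR 0 of these 6 were called, and 2 were higher and 2 lower at an unadjusted p under 0.05. Their part in the levels of the members was not tested. The HFD mice of 20 weeks serve both this comparison and the one between durations, so that the values of these comparisons are not independent of each other.

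At 7 days, Mmp9 was the 1 member called higher in FEN-HFD livers against HFD livers, and 0 of the 32 tested were lower. Of all 13157 genes, 0.0988% were called higher and 0% lower. The median was -0.01 for the members and for all genes, with 17 negative and 15 positive values. At an unadjusted p under 0.05 the count was 4 higher (Mmp9, Thbs2, Loxl2 and Postn) and 0 lower, where 2.63% and 2.45% of all genes passed, and DESeq2 and limma-voom also called 0 members lower. The groups did not overlap in 2 members, Mmp9 and Loxl2, both higher with fenretinide, and in 0 members lower, as in 1.69% and 1.5% of all genes. Between FEN-HFD livers at 20 weeks and FEN-HFD livers at 7 days, 1 of 31 members was higher (Wwtr1) and 0 were lower, where 0.849% and 0.332% of all genes were called, while DESeq2 and limma-voom also called Lum lower. At an unadjusted p under 0.05 there was 1 higher (Wwtr1) and 1 lower (Lum), where 6.03% and 3.63% of all genes passed. The groups did not overlap in 1 member higher (Wwtr1) and 0 lower, as in 4.09% and 2.46% of all genes.

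The difference between the 20-week and the 7-day effect of fenretinide, tested as an interaction over all 16 mice, called 0 of 32 members by edgeR, where 0.00747% of all genes were called higher and 0.0224% lower. At an unadjusted p under 0.05, 7 members had a more negative effect at 20 weeks (Lum, Wwtr1, Timp2, Lox, Loxl1, Ctgf and Tagln) and 0 a more positive one, where 4.73% and 3.95% of all genes passed. DESeq2 and limma-voom each called 1 member, Lum. The effects at the 2 durations are therefore given side by side below, with no member called different between them by edgeR.

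**Figure D1:**
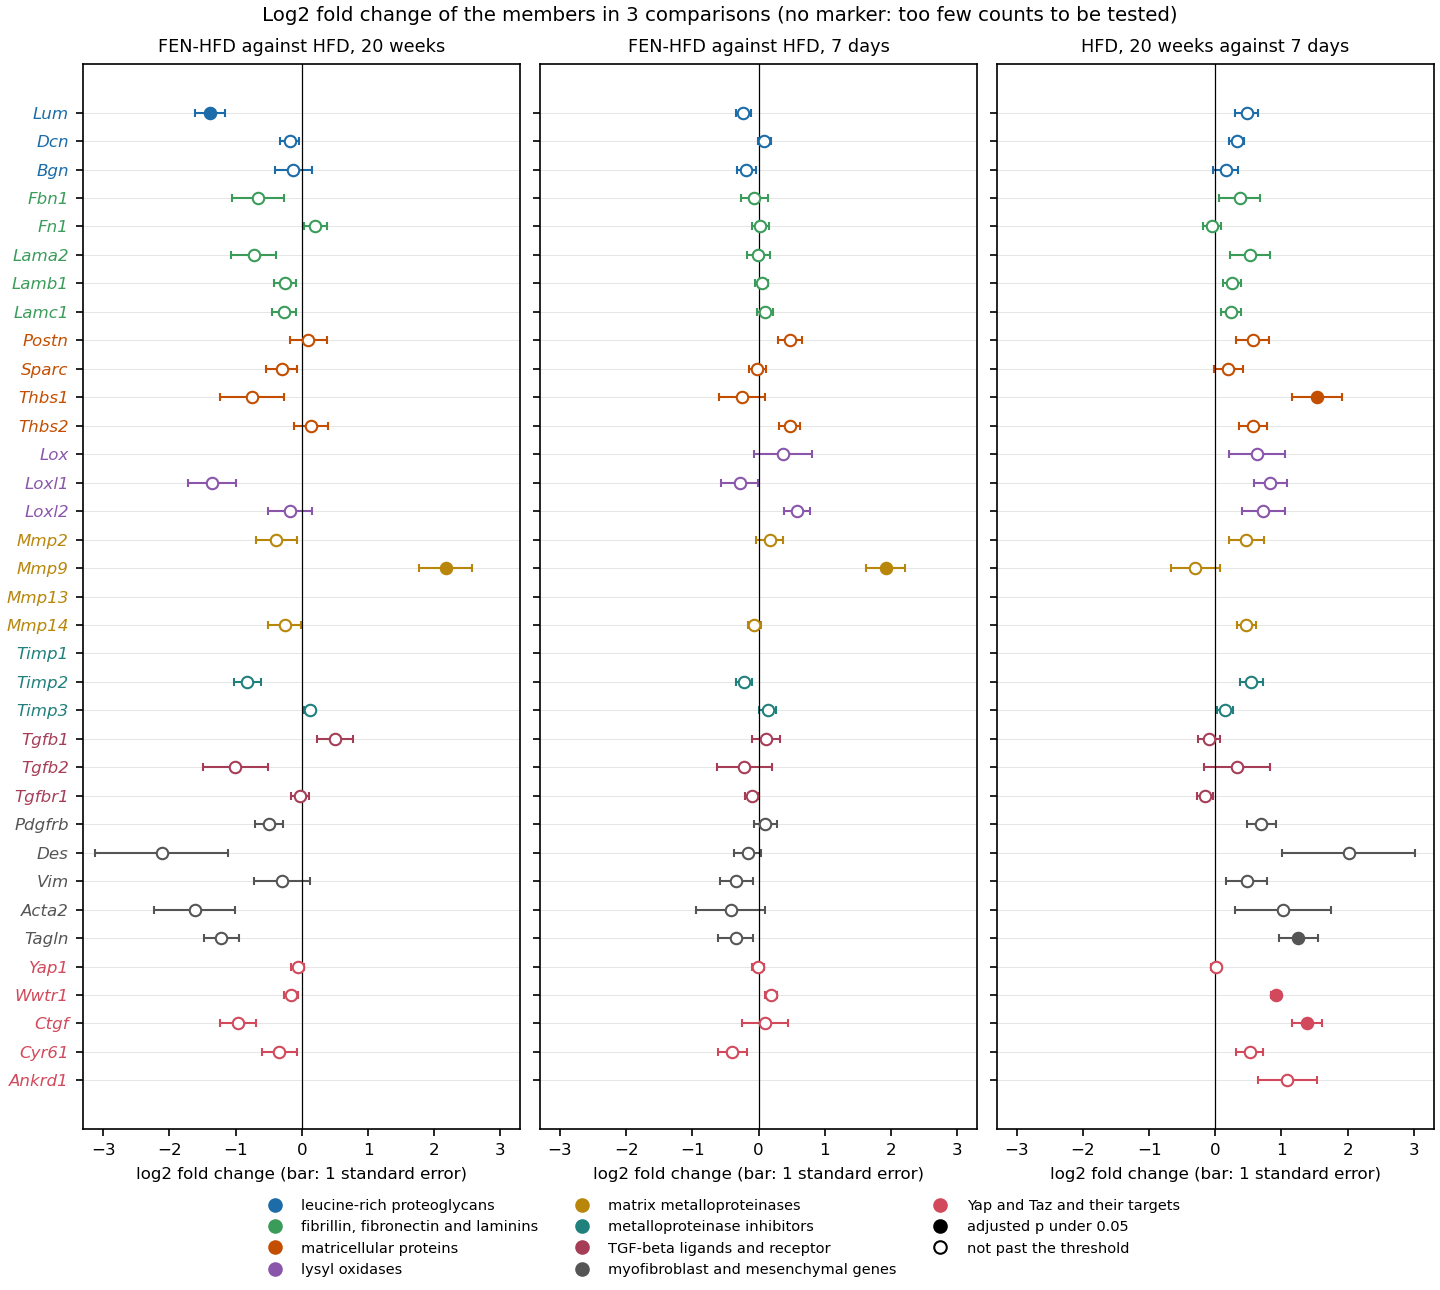
Log2 fold change (x axis) with 1 standard error for each member (y axis, coloured by role) in FEN-HFD against HFD livers at 20 weeks, FEN-HFD against HFD livers at 7 days, and HFD livers at 20 weeks against 7 days; filled points passed an adjusted p of 0.05 and members with too few counts have no point. Most points lie left of 0 in the 20-week panel (25 of 31) and right of 0 in the panel for time on the HFD (29 of 33), while those of the 7-day panel fall on both sides of 0 (17 negative, 15 positive), with Mmp9 far to the right.

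The plot of fold changes by role shows that the called members were few in each comparison. The widest errors are those of Des and Acta2, in which 1 mouse was far above the others of its group.

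Wwtr1, which encodes Taz, was the member with the smallest p in the comparison of durations. It lies on chromosome 3 from 57455644 to 57575910 on the minus strand of mm10 and overlaps the pseudogene Gm16016 on the other strand, and the strand setting of the counting is not given in the sources used here, so that reads of such a pair may be mixed. Its levels were 44.5, 44.7, 49.6 and 35.8 CPM in FEN-HFD livers and 51.3, 53.3, 46.8 and 44.4 CPM in HFD livers at 20 weeks. At 7 days they were 25.4, 29.7, 30.9 and 30.8 CPM in FEN-HFD livers and 27.0, 25.8, 24.8 and 25.2 CPM in HFD livers. Every mouse of 20 weeks was above every mouse of 7 days, on either diet. On the HFD the log2 fold change for 20 weeks against 7 days was 0.92 (standard error 0.08, edgeR adjusted p = 0.000529), and it stayed past the threshold under all 15 alternative settings tried, with an adjusted p of at most 0.00369. In FEN-HFD mice it was 0.57 (standard error 0.11, edgeR adjusted p = 0.0415). That call was lost when any 1 of mice 21, 22, 24, 61, 62, 65 and 66 was left out (edgeR adjusted p from 0.0895 to 0.155), and was held without mouse 29 (0.0029).

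Fenretinide itself did not move Wwtr1 past the threshold. The log2 fold change of FEN-HFD against HFD was -0.16 at 20 weeks (95% interval -0.40 to 0.08) and 0.19 at 7 days (95% interval -0.01 to 0.39). The difference between these effects was -0.34 (standard error 0.14), with an unadjusted p of 0.0235 and an edgeR adjusted p of 0.49. Tests of Yap1, the paralogue of Taz, gave values near 0 throughout. Its levels ran from 51.7 to 68.0 CPM in FEN-HFD and from 60.8 to 67.8 CPM in HFD livers at 20 weeks, and from 55.2 to 68.6 CPM in FEN-HFD and from 58.1 to 68.1 CPM in HFD livers at 7 days. The 4 groups overlapped, and the log2 fold change on the HFD for 20 weeks against 7 days was 0.01 (95% interval -0.16 to 0.18).

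Ctgf, a secreted matricellular protein and one of the best known Yap/Taz targets, was higher in HFD livers at 20 weeks than at 7 days. The gene lies on chromosome 10 from 24595442 to 24598683 on the plus strand and overlaps the non-coding Gm15270 on the other strand. Levels at 20 weeks were 3.07, 5.83, 2.41 and 5.10 CPM in FEN-HFD livers, against 8.83, 8.31, 5.89 and 8.65 CPM in HFD livers. At 7 days they were 1.40, 3.93, 3.10 and 4.53 CPM in FEN-HFD livers, against 2.35, 2.58, 4.48 and 2.59 CPM in HFD livers. All 4 HFD mice of 20 weeks were above all the other 12 mice. The log2 fold change on the HFD for 20 weeks against 7 days was 1.38 (standard error 0.23, edgeR adjusted p = 0.0086), and all 15 alternatives kept it past the threshold, with an adjusted p of at most 0.0334.

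At 20 weeks the FEN-HFD mice were all below the HFD mice for Ctgf, without overlap. The log2 fold change was -0.96 (standard error 0.27) and missed the threshold, with an edgeR adjusted p of 0.106, while DESeq2 gave 0.0186 and limma-voom 0.0362. At 7 days the fold change of FEN-HFD against HFD was 0.10 (95% interval -0.67 to 0.87).

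Cyr61, another secreted target, had 2.39 to 6.42 CPM in FEN-HFD livers and 5.05 to 8.0 CPM in HFD livers at 20 weeks. After 7 days it had 2.17 to 4.14 CPM in FEN-HFD livers and 3.03 to 5.02 CPM in HFD livers. The HFD mice of 20 weeks were again all above those of 7 days, but the fold change of 0.52 did not pass (edgeR adjusted p = 0.144). Ankrd1, a nuclear ankyrin-repeat protein and target, had 0 to 5 counts in FEN-HFD mice and 9 to 18 counts in HFD mice at 20 weeks. It was too low to be tested between those groups. In mice on the HFD its fold change for 20 weeks against 7 days was 1.09 (standard error 0.44, edgeR adjusted p = 0.164).

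TEAD factors, the DNA-binding partners of Yap and Taz, recognise the hexamer GGAATG, so the 250 bases before the start sites of the members were searched for it on both strands. RefSeq start sites on GRCm38.p6, the assembly of mm10, were at hand for 22 of the 35 members (25 promoters). Lum, Mmp9, Ctgf, Tagln and Thbs1 were among the members without one and were not searched. A match was found in 7 of the 25 promoters (28%), those of Wwtr1, Cyr61, Ankrd1, Yap1, Acta2 and Timp1, against 12.6% of all 32851 promoters of the same length. Wwtr1 has 2 neighbouring start sites that share 1 match. Stretches of 160 bases from 3 Yap/Taz genes are printed to show these matches, each from 220 to 61 bases before its start site, with GGAATG or its reverse complement CATTCC in capitals. They lie at chr3:57575971-57576130 (Wwtr1), chr3:145650046-145650205 (Cyr61) and chr19:36119905-36120064 (Ankrd1), all on the minus strand.
Wwtr1: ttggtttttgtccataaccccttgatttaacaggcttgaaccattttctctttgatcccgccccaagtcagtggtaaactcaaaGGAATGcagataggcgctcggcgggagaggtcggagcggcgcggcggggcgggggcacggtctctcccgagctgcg
Cyr61: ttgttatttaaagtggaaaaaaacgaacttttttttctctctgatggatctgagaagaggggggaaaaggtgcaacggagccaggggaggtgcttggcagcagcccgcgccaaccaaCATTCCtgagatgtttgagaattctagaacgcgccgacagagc
Ankrd1: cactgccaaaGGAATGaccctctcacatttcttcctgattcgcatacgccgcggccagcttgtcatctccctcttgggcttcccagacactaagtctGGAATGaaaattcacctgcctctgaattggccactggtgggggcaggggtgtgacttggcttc
The match begins 136 bases before the first start site of Wwtr1 and 103 bases before that of Cyr61, and the 2 matches of Ankrd1 begin 210 and 123 bases before its start site. A match of 6 letters is a description of the sequence, and binding was not measured. In the same windows the AP-1 motif TGANTCA was found for 1 member (Mmp13; 6.75% of all promoters), AGGTCA, a site of retinoid receptors, for 2 (Postn and Wwtr1; 14% of all promoters), and the CArG box for 1 (Lama2; 1.47%). None of these overlapped a GGAATG match.

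**Figure D2:**
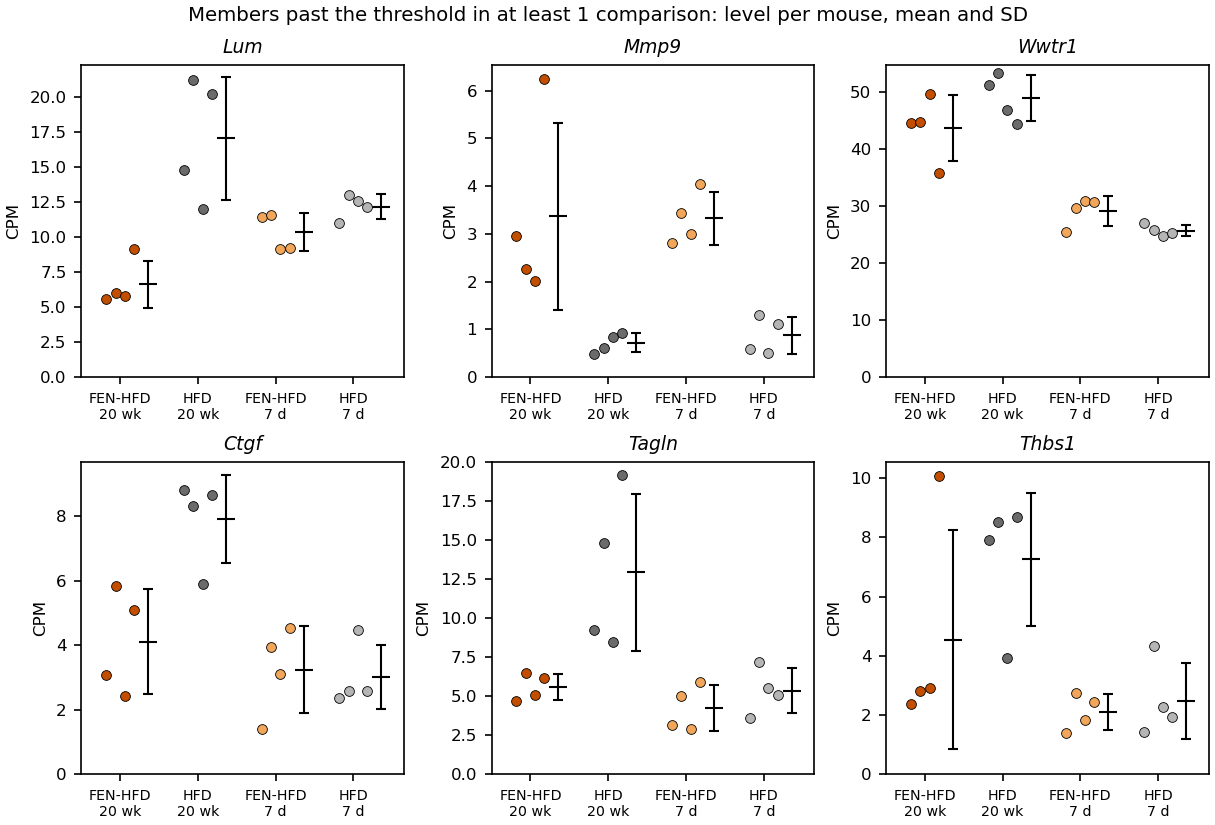
Level in CPM (y axis, from 0) of the 6 members called in at least 1 comparison, for each of 4 mice per group (points) with the group mean and SD beside them. For Lum, Ctgf and Tagln the 4 FEN-HFD mice of 20 weeks lie below the 4 HFD mice of 20 weeks, for Mmp9 the FEN-HFD mice lie above the HFD mice at both durations, and for Wwtr1 the mice of 20 weeks lie above those of 7 days.

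The plot of the 6 called members by mouse shows how far each call rests on separate groups. Thbs1 is the exception, since HFD mouse 33 of 20 weeks lay below HFD mouse 143 of 7 days.

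Of 20 other genes of the Hippo and Yap/Taz pathway, among them the TEAD factors, the Lats and Mst kinases (Lats1, Lats2, Stk3, Stk4) and the Amot family, all were tested and 0 were called in any of the 5 comparisons by edgeR. At an unadjusted p under 0.05, 0 passed for fenretinide at either duration. In HFD livers at 20 weeks against 7 days 1 was higher and 3 lower, where 13.3% and 12.2% of all genes passed. Their summed level was 511 to 549 CPM in FEN-HFD livers and 495 to 552 CPM in HFD livers at 20 weeks, and their median fold change was 0.05, against 0.01 over all genes.

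The TGF-beta ligands and receptor were not called in any comparison. Tgfb1, the ligand that drives myofibroblast formation, had 3.93, 3.52, 2.96 and 7.18 CPM in FEN-HFD livers and 2.49, 3.38, 2.88 and 3.35 CPM in HFD livers at 20 weeks. The fold change was 0.51 (95% interval -0.10 to 1.11), with the highest value in mouse 29. Tgfb2, another ligand, had 0.524, 0.274, 0.251 and 0.728 CPM in FEN-HFD livers and 0.868, 0.899, 0.327 and 1.29 CPM in HFD livers, on 5 to 14 and 10 to 32 counts per mouse. Its fold change was -1.0 (95% interval -2.09 to 0.08, edgeR adjusted p = 0.309), and the groups overlapped. Tgfbr1, the type I receptor kinase, had a fold change of -0.03 (95% interval -0.34 to 0.28) at 20 weeks. Of 20 other TGF-beta pathway genes, 0 were called with fenretinide at either duration by edgeR. At an unadjusted p under 0.05, 0 were higher and 3 lower at 20 weeks, where 8.5% and 10% of all genes passed. At 7 days 0 were higher and 2 lower, where 2.63% and 2.45% passed. In HFD livers at 20 weeks against 7 days, 2 of the 20 were called higher and 0 lower, where 4.78% and 2.73% of all genes were. The 2 were Ltbp1, which holds latent TGF-beta in the matrix (0.87, edgeR adjusted p = 0.0442), and Smurf1, a ubiquitin ligase for its receptors and Smads (0.40, edgeR adjusted p = 0.044). At an unadjusted p under 0.05, 5 were higher and 1 lower, where 13.3% and 12.2% of all genes passed.

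Tagln, which encodes the actin-binding protein transgelin of smooth muscle and myofibroblasts, was higher in HFD livers at 20 weeks than at 7 days. It lies on chromosome 9 from 45929628 to 45936058 on the minus strand and overlaps Pcsk7 on the other strand. At 20 weeks it had 4.68, 6.46, 5.08 and 6.14 CPM in FEN-HFD livers, against 9.25, 14.8, 8.48 and 19.2 CPM in HFD livers. Levels at 7 days were 3.11, 4.98, 2.88 and 5.91 CPM in FEN-HFD livers, against 3.61, 7.16, 5.55 and 5.10 CPM in HFD livers. The HFD mice of 20 weeks were above all the other mice. The fold change for 20 weeks against 7 days on the HFD was 1.25 (standard error 0.30, edgeR adjusted p = 0.0384). It lost the threshold when any 1 of mice 25, 28, 45, 142, 144 and 146 was left out, with edgeR adjusted p-values from 0.053 to 0.0979, and held it without mouse 33 (0.0285) or 143 (0.0389). The call was also lost when every gene with at least 1 count was kept. With fenretinide at 20 weeks the fold change was -1.22 (standard error 0.26), just outside the threshold at an edgeR adjusted p of 0.053, and inside it by DESeq2 (0.000664) and limma-voom (0.029).

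Acta2, the smooth muscle actin that defines the myofibroblast, and Des, the intermediate filament desmin of stellate and muscle cells, were each dominated by HFD mouse 45. Acta2 had 2.55, 3.05, 4.47 and 3.33 CPM in FEN-HFD livers and 3.62, 6.05, 5.69 and 25.8 CPM in HFD livers at 20 weeks. Des had 3.37, 3.09, 3.02 and 5.83 CPM in FEN-HFD livers and 3.81, 4.74, 3.04 and 53.1 CPM in HFD livers. FEN-HFD and HFD livers overlapped for both genes. The fold change of Acta2 was -1.62 (standard error 0.61, edgeR adjusted p = 0.205), and it was -0.62 without mouse 45 (edgeR adjusted p = 0.254). DESeq2, with mouse 45 in the fit, called Acta2 lower (-1.61, adjusted p = 0.0368), and limma-voom did not (-1.28, adjusted p = 0.183). Des had -2.12 (standard error 1.0, edgeR adjusted p = 0.312). The summed level of 6 vascular smooth muscle markers (among them Myh11 and Cnn1) was 183 CPM in mouse 45, and 102 to 108 CPM in FEN-HFD livers and 105 to 117 CPM in the other 3 HFD livers. Its part in these values was not tested.

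**Figure D3:**
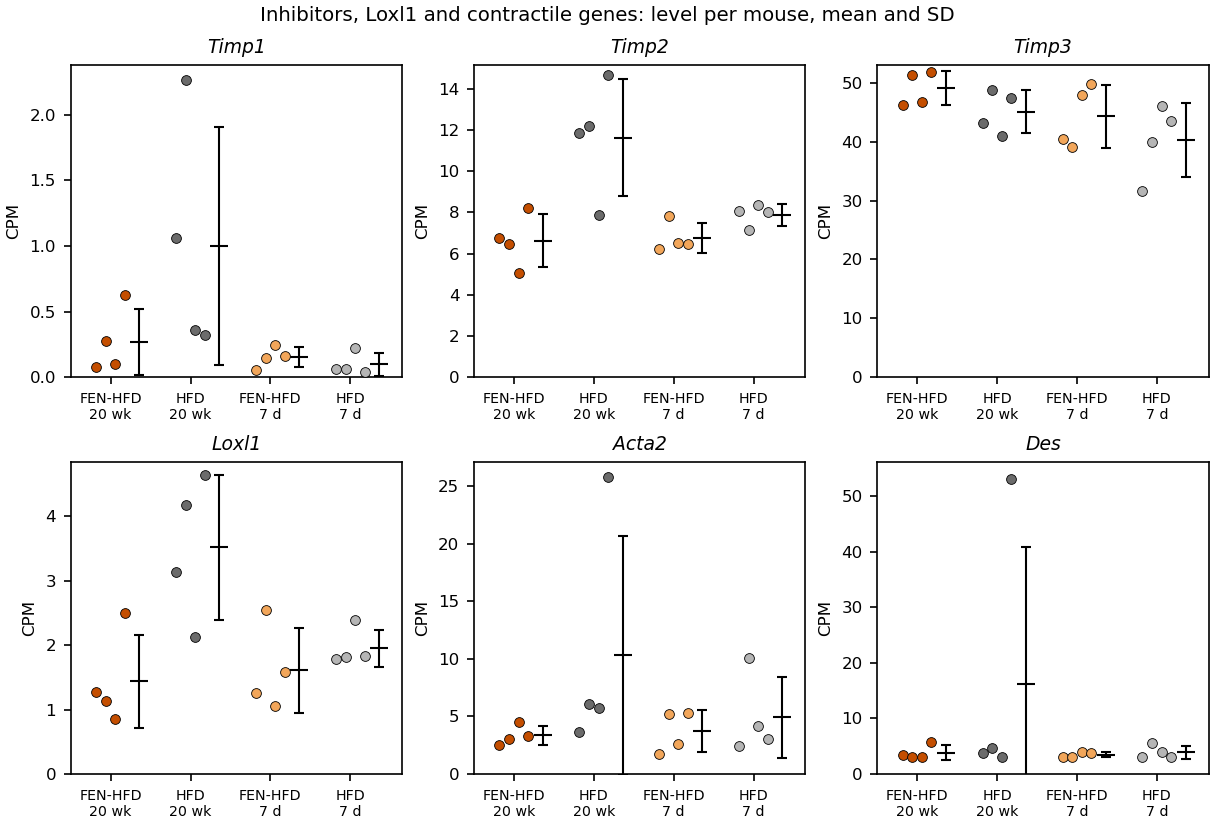
Level in CPM (y axis, from 0) of the 3 Timps, Loxl1, Acta2 and Des for each of 4 mice per group (points), with the group mean and SD (bars that would pass below 0 are cut there). A single HFD mouse of 20 weeks, mouse 45, holds 53.1 CPM of Des and 25.8 CPM of Acta2, while Timp3 is at a like level in all 4 groups.

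In the plot of inhibitors and contractile genes, the mean of a group with 1 very high mouse is not its typical level: the median of Des in HFD livers at 20 weeks was 4.28 CPM and its mean 16.2 CPM.

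The other mesenchymal members were not called by edgeR with all mice in pairwise fits. Limma-voom called Pdgfrb and Vim lower with fenretinide at 20 weeks, and DESeq2 called Pdgfrb higher on the HFD at 20 weeks against 7 days, as did the fit of all 16 libraries and edgeR without mouse 33 or 144. Pdgfrb, the receptor for platelet-derived growth factor on stellate cells and pericytes, had 9.45 to 16.9 CPM in FEN-HFD livers and 11.8 to 20.2 CPM in HFD livers at 20 weeks (fold change -0.50, 95% interval -0.97 to -0.02, edgeR adjusted p = 0.249). Vim, the mesenchymal filament vimentin that macrophages also express, had 18.3 to 64.8 CPM in FEN-HFD livers and 24.8 to 49.3 CPM in HFD livers. Mouse 29 had the highest Vim of all 16 mice. Its fold change was -0.30 (95% interval -1.26 to 0.66).

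Lum, which encodes lumican, a leucine-rich proteoglycan that binds collagen fibrils, fell in FEN-HFD livers at 20 weeks. It lies on chromosome 10 from 97565501 to 97572703 on the plus strand and overlaps no other gene of the annotation. At 20 weeks Lum had 5.58, 5.99, 5.78 and 9.15 CPM in FEN-HFD livers, against 14.8, 21.2, 12 and 20.2 CPM in HFD livers. Levels at 7 days were 11.4, 11.6, 9.14 and 9.23 CPM in FEN-HFD livers, against 11, 13, 12.5 and 12.1 CPM in HFD livers. The groups did not overlap at 20 weeks and overlapped at 7 days. The mean was 6.62 ± 1.69 CPM in FEN-HFD and 17.0 ± 4.40 CPM in HFD livers at 20 weeks (SD, n = 4 each), which gave a log2 fold change of -1.39 (standard error 0.22, edgeR adjusted p = 0.0179). In whole liver, fewer cells of a type and less RNA per cell cannot be told apart, for Lum as for every member.

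The direction of Lum was kept in all 16 alternative settings at 20 weeks, with fold changes between -1.55 and -1.26, but not its call. Without FEN-HFD mouse 21, 22 or 24 the edgeR adjusted p was 0.0807, 0.0573 and 0.0627, and without HFD mouse 25 it was 0.0552. Leaving out any of the other 4 mice kept the call (0.00669 to 0.0413), and DESeq2 (9.62e-07) and limma-voom (0.00203) made it too. At 7 days the fold change was -0.23 (95% interval -0.49 to 0.04), and the difference between the 2 effects was -1.16 (standard error 0.26, unadjusted p = 0.000314, edgeR adjusted p = 0.124; DESeq2 0.00536, limma-voom 0.0167). Within the FEN-HFD mice, 20 weeks against 7 days gave -0.68 (edgeR adjusted p = 0.121), and within the HFD mice 0.47 (edgeR adjusted p = 0.132).

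The other 2 leucine-rich proteoglycans were not called by edgeR with all mice in the fit. Dcn, decorin, which also binds collagen and sequesters TGF-beta, had 197, 189, 184 and 252 CPM in FEN-HFD livers and 241, 269, 189 and 235 CPM in HFD livers at 20 weeks. The fold change was -0.19 (95% interval -0.50 to 0.13), with overlapping groups. On the HFD, 20 weeks against 7 days gave 0.32 (edgeR adjusted p = 0.116), which DESeq2 called (adjusted p = 0.0452), as did edgeR without mouse 33 (0.0402). Bgn, biglycan, had a fold change of -0.13 (95% interval -0.75 to 0.50). The genes of lumican and decorin are neighbours, and Dcn spans 97479500 to 97518163 on the same strand of chromosome 10.

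The fibrillar glycoproteins and laminins had no member called by edgeR with all mice in the fit. Fn1, fibronectin, which hepatocytes secrete into plasma as well, had 1092 to 1606 CPM in FEN-HFD livers and 886 to 1351 CPM in HFD livers at 20 weeks (fold change 0.20, 95% interval -0.18 to 0.59). Fbn1, the microfibril protein fibrillin, had 10.3, 8.30, 7.39 and 21.8 CPM in FEN-HFD livers and 16.7, 23.2, 9.95 and 23.6 CPM in HFD livers. Its fold change was -0.66 (standard error 0.39, edgeR adjusted p = 0.4), while limma-voom called it lower (-0.92, adjusted p = 0.0474). For FEN-HFD at 20 weeks against 7 days, edgeR called Fbn1 lower when mouse 29 was left out (-0.64, adjusted p = 0.0347). Lama2, a laminin chain of basement membranes around muscle and mesenchymal cells, had 8.42, 6.11, 4.82 and 10.6 CPM in FEN-HFD livers and 10.3, 13.7, 6.45 and 18.6 CPM in HFD livers (fold change -0.73, edgeR adjusted p = 0.3). The chains Lamb1 and Lamc1 gave -0.25 and -0.26, both with intervals that span 0. For each of Fbn1, Lama2, Lamb1 and Lamc1, mouse 29 had the highest level of its group.

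Other matrix genes showed no call with fenretinide at either duration: 0 of 12 laminin and basement membrane genes and 0 of 16 tested genes of elastic fibres, proteoglycans and glycoproteins by edgeR. At 20 weeks and an unadjusted p under 0.05, 1 was higher and 4 lower in the first list and 1 higher and 6 lower in the second, with median fold changes of -0.41 and -0.79, where 8.5% of all genes passed higher and 10% lower and the median of all genes was 0.01. At 7 days 1 passed lower in the first list and 1 higher in the second, where 2.45% of all genes passed lower and 2.63% higher. In HFD livers at 20 weeks against 7 days, Lamb3, a laminin chain of epithelia, was higher (1.67, edgeR adjusted p = 0.00127), as were Tnc, tenascin C (1.69, edgeR adjusted p = 0.0302), and Fbln2, fibulin 2 (1.54, edgeR adjusted p = 0.0469). Vtn, the plasma glycoprotein vitronectin of hepatocytes, was lower (-0.57, edgeR adjusted p = 0.0357). These were 1 higher and 0 lower in the first list, and 2 higher and 1 lower in the second. Of all genes, 4.78% were called higher and 2.73% lower. At an unadjusted p under 0.05, 2 were higher and 1 lower in the first list, and 6 higher and 2 lower in the second. Of all genes, 13.3% and 12.2% passed.

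Among the matricellular proteins, which modulate matrix and cell contact without being structural, Thbs1 was called between durations. It encodes thrombospondin 1, an activator of latent TGF-beta, and lies on chromosome 2 from 118111876 to 118127133. At 20 weeks it had 2.36, 2.82, 2.91 and 10.1 CPM in FEN-HFD livers, against 7.92, 8.53, 3.93 and 8.69 CPM in HFD livers. After 7 days it had 1.40, 2.73, 1.83 and 2.43 CPM in FEN-HFD livers, against 1.41, 4.33, 2.26 and 1.91 CPM in HFD livers. HFD mouse 33 of 20 weeks lay below HFD mouse 143 of 7 days, so that the groups overlapped. The fold change on the HFD for 20 weeks against 7 days was 1.53 (standard error 0.38, edgeR adjusted p = 0.0426). It lost the threshold when any 1 of mice 25, 28, 45, 142, 144 and 146 was left out (edgeR adjusted p from 0.0754 to 0.106) and held it without mouse 33 (0.0246) or 143 (0.0113). The call was also lost when every gene with at least 1 count was kept.

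With fenretinide at 20 weeks the fold change of Thbs1 was -0.76 (standard error 0.48, edgeR adjusted p = 0.439), and it was -1.43 without mouse 29 (edgeR adjusted p = 0.0274). Limma-voom, with all mice in the fit, called Thbs1 lower, and DESeq2 did not. Sparc, osteonectin, which binds collagen, had 43.7, 40.2, 38.3 and 65.0 CPM in FEN-HFD livers and 66.9, 75.1, 37.5 and 50.8 CPM in HFD livers (fold change -0.31, edgeR adjusted p = 0.535). Thbs2 and Postn, which encode thrombospondin 2 and periostin, were not called in any comparison. At 7 days they had fold changes of 0.47 each in FEN-HFD against HFD livers, with unadjusted p-values of 0.0138 and 0.0259.

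No lysyl oxidase, the enzymes that crosslink collagen and elastin, was called by edgeR with all mice in pairwise fits. Loxl1, which acts on elastin, lies on chromosome 9 from 58287723 to 58313212 and had 1.27, 1.14, 0.854 and 2.5 CPM in FEN-HFD livers and 3.13, 4.19, 2.13 and 4.65 CPM in HFD livers at 20 weeks. Only mouse 29 of the FEN-HFD group reached above the lowest HFD mouse. The fold change was -1.36 (standard error 0.36, edgeR adjusted p = 0.0854), and it was -1.67 without mouse 29 (edgeR adjusted p = 0.0193), -1.35 by DESeq2 (adjusted p = 0.00755) and -1.50 by limma-voom (adjusted p = 0.013). At 7 days the value was -0.29 (95% interval -0.89 to 0.32). On the HFD, 20 weeks against 7 days gave 0.83 (edgeR adjusted p = 0.0777), which passed by DESeq2 (0.0245) and by edgeR without mouse 33 (0.0251).

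Loxl2, which acts on fibrillar and basement membrane collagen, had 3.56, 3.68, 3.72 and 5.93 CPM in FEN-HFD livers and 6.00, 6.91, 2.45 and 3.31 CPM in HFD livers at 20 weeks (fold change -0.17, 95% interval -0.92 to 0.57). At 7 days all 4 FEN-HFD mice (5.57, 3.78, 3.59 and 3.76 CPM) were above the HFD mice (2.16, 3.18, 3.32 and 2.55 CPM). The fold change of 0.58 had an unadjusted p of 0.0141 and did not pass (edgeR adjusted p = 0.713). Lox had 3 to 5 counts in FEN-HFD mice and 9 to 20 counts in HFD mice at 20 weeks and was too low to be tested between them.

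Mmp9, gelatinase B, a secreted protease of neutrophils and macrophages that cleaves denatured and basement membrane collagen, was higher with fenretinide at both durations. It lies on chromosome 2 from 164940326 to 164955850 on the plus strand and overlaps no annotated gene. At 20 weeks it had 2.96, 2.27, 2.01 and 6.24 CPM in FEN-HFD livers, against 0.491, 0.620, 0.851 and 0.930 CPM in HFD livers. After 7 days it had 2.80, 3.44, 3.01 and 4.05 CPM in FEN-HFD livers, against 0.596, 1.30, 0.516 and 1.12 CPM in HFD livers. Every FEN-HFD mouse was above every HFD mouse, on 40 to 100 and 13 to 41 counts. The log2 fold change was 2.17 at 20 weeks (standard error 0.40, edgeR adjusted p = 0.0293) and 1.92 at 7 days (standard error 0.29, edgeR adjusted p = 0.0411). The effects at the 2 durations differed by 0.25 (95% interval -0.83 to 1.33).

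Both calls of Mmp9 sat close to the threshold. At 20 weeks the edgeR adjusted p was over it without FEN-HFD mouse 21 (0.0878) and without HFD mouse 25 (0.106), 28 (0.085) or 33 (0.063), and was 0.013 without mouse 29, where the fold change was 1.74. At 7 days the call was kept without HFD mouse 143 (0.0144) and lost without any other 1 of mice 61, 62, 65, 66, 142, 144 and 146 (0.0851 to 0.148), and in 1 fit of all 16 libraries it was 0.0535. Fold changes stayed between 1.73 and 2.36 in every setting tried at either duration, and DESeq2 (1.9e-05 and 2.6e-07) and limma-voom (0.00673 and 0.00713) made both calls.

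Markers of the cells that make Mmp9 were read beside it. The summed level of 7 neutrophil markers was 4.90, 2.66, 5.23 and 23.1 CPM in FEN-HFD livers and 5.59, 6.23, 3.73 and 2.87 CPM in HFD livers at 20 weeks, and 5.43 to 5.91 CPM in FEN-HFD and 3.23 to 10.8 CPM in HFD livers at 7 days. These groups overlapped at both durations. Of the 3 that could be tested at 20 weeks, 0 were called by edgeR (0 at an unadjusted p under 0.05), and Ngp, a neutrophil granule gene, was at 0 in all 4 HFD mice of 20 weeks. The summed level of 8 Kupffer cell and macrophage markers was 572, 499, 518 and 1191 CPM in FEN-HFD livers and 402, 412, 461 and 394 CPM in HFD livers at 20 weeks, without overlap. At 7 days it was 545 to 702 CPM in FEN-HFD livers and 496 to 1097 CPM in HFD livers, with overlap. Of these 8 markers, 1 was called higher at 20 weeks (Marco, a scavenger receptor, 2.26, edgeR adjusted p = 0.0357) and 0 at 7 days. At an unadjusted p under 0.05, 5 and 0 were higher, where 8.5% and 2.63% of all genes passed. Their part in the Mmp9 values was not tested.

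No other metalloproteinase was called by edgeR. Mmp2, gelatinase A, which stellate cells make, had 4.83, 3.6, 2.36 and 4.89 CPM in FEN-HFD livers and 4.94, 6.11, 2.65 and 6.63 CPM in HFD livers at 20 weeks (fold change -0.38, 95% interval -1.09 to 0.32). Mmp14, the membrane-bound activator of Mmp2, had a fold change of -0.26 (95% interval -0.81 to 0.29). In HFD livers it had 16.5 to 25.8 CPM at 20 weeks and 13.3 to 16.1 CPM at 7 days, without overlap, and a fold change of 0.47 that did not pass (edgeR adjusted p = 0.0825), while DESeq2 called it higher. Mmp13, the interstitial collagenase of rodents, was too low for the filter in every comparison, with 0 to 3 counts in FEN-HFD mice, and 40, 88, 5 and 7 counts in HFD mice at 20 weeks. When every gene with at least 1 count was kept, its fold change with fenretinide at 20 weeks was -3.44 (edgeR adjusted p = 0.189).

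The 3 tissue inhibitors of metalloproteinases had no member called by edgeR with the filter and all mice in pairwise fits. Timp1, the inhibitor induced in fibrosis, lies on the X chromosome from 20870166 to 20874737 and overlaps Syn1 on the other strand. It was too low for the filter in every comparison, with 2, 7, 2 and 6 counts in FEN-HFD livers and 28, 73, 11 and 8 counts in HFD livers at 20 weeks. At 7 days it had 2, 4, 8 and 4 counts in FEN-HFD livers and 2, 2, 7 and 1 counts in HFD livers. In CPM the HFD mice of 20 weeks had 1.06, 2.26, 0.360 and 0.323, above the 0.0398 to 0.226 CPM of HFD mice at 7 days, and overlapped with the FEN-HFD mice of 20 weeks (0.0749 to 0.624 CPM). When every gene with at least 1 count was kept, the fold change of Timp1 on the HFD for 20 weeks against 7 days was 3.27 (edgeR adjusted p = 0.0425). Timp1 passed the filter and was called higher in that comparison without mouse 45 or without mouse 144. Without mouse 142 or without mouse 146 it passed the filter and was not called. With fenretinide at 20 weeks and every such gene kept, it was -2.10 (edgeR adjusted p = 0.254).

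Timp2, which inhibits and also helps to activate Mmp2, lies on chromosome 11 from 118301061 to 118355411, and overlaps Cep295nl on the same strand. At 20 weeks it had 6.78, 6.46, 5.08 and 8.22 CPM in FEN-HFD livers, against 11.8, 12.2, 7.85 and 14.7 CPM in HFD livers. At 7 days it had 6.23, 7.82, 6.54 and 6.48 CPM in FEN-HFD livers, against 8.06, 7.13, 8.35 and 8.04 CPM in HFD livers. At 20 weeks only mouse 29 was above the lowest HFD mouse, 33. The fold change was -0.82 (standard error 0.20) and did not pass by edgeR (adjusted p = 0.0747). It did without mouse 29 (0.0435) or mouse 33 (0.0386), by DESeq2 (0.00696), by limma-voom (0.0201) and in the fit of all 16 libraries (0.0116). On the HFD, 20 weeks against 7 days gave 0.55 (edgeR adjusted p = 0.0873), which passed by DESeq2 (0.0341), in the fit of all 16 libraries (0.0409) and without mouse 33 (0.0155).

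Timp3, the inhibitor bound to matrix, had 46.3, 51.4, 46.8 and 51.8 CPM in FEN-HFD livers and 43.2, 48.8, 41.0 and 47.4 CPM in HFD livers at 20 weeks. Its fold changes lay between 0.12 and 0.15 in each of the 4 comparisons of groups, with intervals that span 0, and at 20 weeks the interval was -0.07 to 0.31. Of 20 other proteases, inhibitors and crosslinkers of matrix, 15 were tested at 20 weeks and 0 were called with fenretinide at either duration by edgeR. At 20 weeks and an unadjusted p under 0.05, 0 were higher and 3 lower, where 8.5% and 10% of all genes passed. Mmp12, the macrophage elastase, was higher in HFD livers at 20 weeks against 7 days (3.98, edgeR adjusted p = 0.0476). It was the 1 called higher of 15 tested there, with 0 lower, where 4.78% and 2.73% of all genes were called. At an unadjusted p under 0.05, 3 were higher and 0 lower, where 13.3% and 12.2% of all genes passed.

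The members were also not spread evenly over the mice of a group. Over the 16 libraries, 31 members and 12892 genes had a mean of at least 0.5 CPM. Mouse 29 had the highest level of the 4 FEN-HFD mice of 20 weeks in 24 of these members (77.4%) and 38.5% of these genes. Its median log2 ratio to the other 3 mice was 0.67 over the members and -0.01 over the genes. HFD mouse 33 was highest in 1 of the 31 members (3.23%), against 27.5% of genes, with a median ratio of -0.64 over the members. HFD mouse 45 was highest in 13 (41.9%), against 24.2% of genes, and HFD mouse 28 in 14 (45.2%), against 28.8% of genes. At 7 days, HFD mouse 144 was highest in 16 of 31 members (51.6%), against 24.9% of genes. Without mouse 29 the median fold change of the members at 20 weeks was -0.49 and 4 were lower (Lum, Timp2, Thbs1 and Loxl1), where 1.67% of all genes were. With mouse 45 left out as well, a choice made after the data had been seen, it was -0.41 and 5 were lower, Tagln being the fifth, where 2.88% of all genes were. Mmp9 was higher in both cases.

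**Figure D4:**
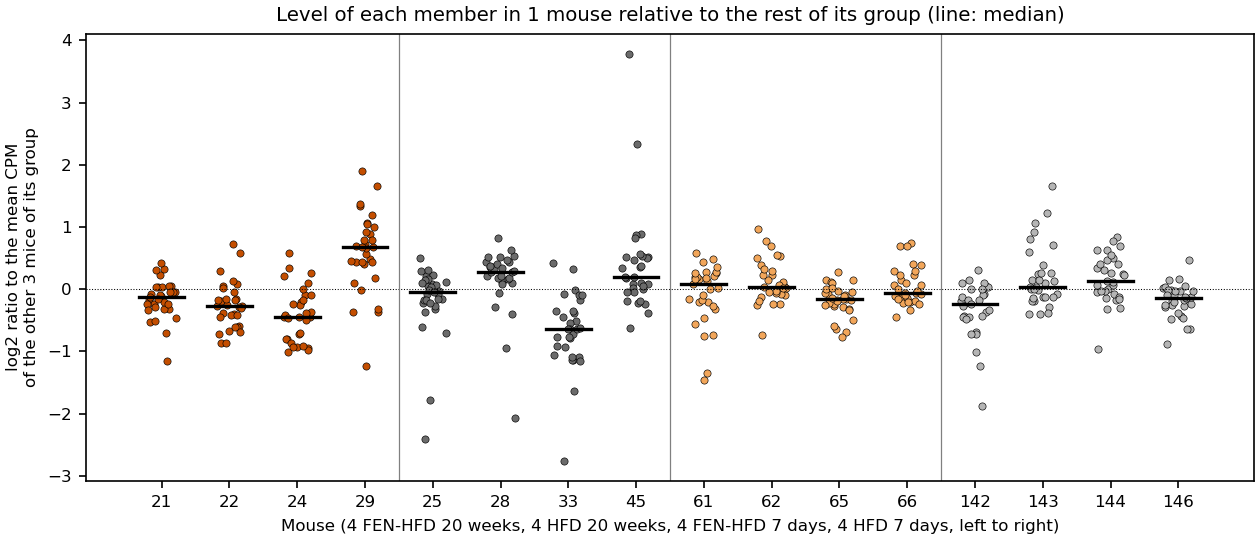
Log2 ratio of the level of a member in 1 mouse to the mean of the other 3 mice of its group (y axis), for the 31 members tested throughout (points) and their median (line), in each of the 16 mice (x axis). The members of mouse 29 lie mostly above 0 (median 0.67) and those of mouse 33 mostly below it (median -0.64), and the 2 highest points of mouse 45 are Des and Acta2.

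The plot of ratios by mouse shows that mice 29 and 33 deviate in most members at once, and mouse 45 mainly in Des and Acta2. Markers of mesenchymal cells were read in the same mice. The summed level of 8 portal fibroblast markers was 45.2, 34.3, 37.5 and 80.6 CPM in FEN-HFD livers and 83.3, 137, 73.0 and 95.9 CPM in HFD livers at 20 weeks, and 24.6 to 36.7 CPM in FEN-HFD and 33.1 to 49.1 CPM in HFD livers at 7 days. The HFD mice of 20 weeks were above all mice of 7 days, and overlapped with the FEN-HFD group through mouse 29. Of the 5 markers tested, 0 were called with fenretinide at 20 weeks. At an unadjusted p under 0.05, 2 were lower, where 10% of all genes passed. Gas6, a growth factor for the Axl receptor, was higher on the HFD at 20 weeks against 7 days (1.34, edgeR adjusted p = 0.0106). It was the 1 called higher of 5 tested there, with 0 lower, where 4.78% and 2.73% of all genes were called. The summed level of 10 stellate cell markers overlapped, at 369 to 493 CPM in FEN-HFD and 371 to 454 CPM in HFD livers at 20 weeks. Of these 10, Lrat, which esterifies retinol for storage, was called higher with fenretinide at 20 weeks (0.75, edgeR adjusted p = 0.0357) and 0 were lower. At 7 days Lrat was also called higher with fenretinide and 0 were lower. Of all genes, 0.769% were called higher and 1.09% lower at 20 weeks, and 0.0988% and 0% at 7 days. At an unadjusted p under 0.05, 1 of the 10 was higher and 1 lower at 20 weeks, where 8.5% and 10% of all genes passed. At 7 days 2 were higher and 0 lower, where 2.63% and 2.45% passed. The part of these cells in the levels of the members was not tested.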

How the data were processed

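Total RNA from 16 mouse livers was sequenced, and the authors aligned the reads to mm10 with STAR 2.0 and deposited 1 table of raw counts per gene, with a column for each mouse, before normalisation with DESeq2 1.6 (submitters' processing notes). The counting program, annotation and strand setting are not given in the sources used here.

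Groups were taken from the diet and duration in the labels. Each of 4 pairs of groups was tested with edgeR 4.0.16 in R 4.3.3 on the counts as deposited (filterByExpr, TMM factors, robust quasi-likelihood fit and F test), with Benjamini-Hochberg adjustment over all genes that passed the filter and a threshold of 0.05. The difference between the effects at 20 weeks and 7 days was an interaction term in a fit of all 16 libraries. Standard errors were derived from the fold change and its F statistic. CPM used TMM factors over all 16 libraries. The p-values reflect the spread between separate mice. The fits were tested on simulated data first.

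The fits were repeated with limma-voom and sample weights (limma 3.58.1), DESeq2 1.42.0, RLE factors, no filter but 1 count, at least 10 counts in every library, removal of Rn45s and Lars2, all 16 libraries in 1 fit, and each mouse left out in turn. Leaving out mice 29 and 45 together was added after seeing the data.

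Members and gene lists were chosen with earlier results of these data known. Values by mouse are given for members called in any comparison, for Timp1, Timp2, Ctgf and Wwtr1, which the study names, and for the 2 members of each role group with the smallest p at 20 weeks. Des and the counts of Mmp13 by mouse were added after their values had been seen. Other members are given by ranges or counts, and of the pathway lists the called genes are named. Coordinates and promoters are from RefSeq on GRCm38.p6. Lean mice and protein measurements were not analysed here.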

Additional observations from a re-analysis of the deposited data

Results flagged for a closer look

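In 127 combinations of a member and a group of 4 mice, 14 had a highest or lowest mouse whose gap to the nearest other mouse was too large a part of the range of the group by Dixon's critical value for 4 samples. For separate groups of normally distributed values, chance gives such a gap in about 1 of 20. The 127 combinations share the same 16 mice, and no share over all genes was computed. The count of 14 therefore cannot be read as an excess particular to the members. Of the 14, 5 belonged to mouse 29, 5 to mouse 144, 2 to mouse 45, 1 to mouse 33 and 1 to mouse 61.

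Mouse 29 (FEN-HFD, 20 weeks), the library with 53.1% of its counts on Rn45s, was highest of its group for Lum at 9.15 CPM, Thbs1 at 10.1 CPM, Loxl2 at 5.93 CPM, Des at 5.83 CPM and Vim at 64.8 CPM. Mouse 45 (HFD, 20 weeks) was highest for Des at 53.1 CPM and Acta2 at 25.8 CPM. In the same group, mouse 33 was lowest for Thbs1 at 3.93 CPM. Mouse 144 (HFD, 7 days) was highest of its group for Bgn at 40.2 CPM, Sparc at 64.0 CPM, Loxl1 at 2.39 CPM and Ctgf at 4.48 CPM, and lowest for Fn1 at 1046 CPM. Mouse 61 (FEN-HFD, 7 days) was highest for Loxl2 at 5.57 CPM.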

How the results depend on the processing

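At 20 weeks, FEN-HFD against HFD, edgeR called 1 member lower, DESeq2 6, limma-voom 9 and the fit of all 16 libraries 4. Of all genes, these called 142, 587, 644 and 407 lower (1.09%, 4.51%, 4.95% and 3.04%). In both directions together they called 242, 1011, 1128 and 661 genes. At 7 days edgeR called 13 genes in both directions together, DESeq2 95, limma-voom 29 and edgeR without the filter 20. The fit of all 16 libraries called 0 members higher (Mmp9 in the pairwise fit). Of all genes it called 0.0896% higher, against 0.0988% in the pairwise fit. For HFD at 20 weeks against 7 days, edgeR called 4 members and 634 genes (4.78%) higher, and DESeq2 9 members and 1065 genes (8.03%). In both directions together the genes called were 996 and 1764. For FEN-HFD at 20 weeks against 7 days, DESeq2 and limma-voom called 1 member lower where edgeR called 0, and limma-voom 2 higher where edgeR called 1. Of all genes, edgeR called 0.332% lower and 0.849% higher, DESeq2 1.14% and 1.98%, and limma-voom 2.99% and 3.9%. The genes called in both directions together were 153 by edgeR, 404 by DESeq2 and 892 by limma-voom. For the difference between effects, DESeq2 and limma-voom called 1 member lower where edgeR called 0, with 0.493%, 0.388% and 0.0224% of all genes lower. In both directions together, DESeq2 called 115 genes and limma-voom 90 where edgeR called 4. The cause was not tested.

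With mice left out (1 at a time, or mice 29 and 45 together, a choice made after seeing the data), the genes called in both directions together ranged from 36 to 595 for fenretinide at 20 weeks, 7 to 18 at 7 days, 468 to 938 for time on the HFD, 57 to 486 for time on FEN-HFD and 0 to 24 for the difference. Members called higher ranged from 0 to 1, 0 to 1, 2 to 9 and 0 to 1 in the first 4 of these, and members lower from 0 to 5 for fenretinide at 20 weeks, 0 to 2 for time on FEN-HFD and 0 to 1 for the difference. Of the values of named members under the alternatives, 1384 kept direction and side of the threshold, 38 gained it, 37 lost it and 48 changed sign.

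All sign changes were in values that edgeR did not call. Under limma-voom they were, for fenretinide at 7 days, Lama2 at 0.025, Thbs1 at 0.20, Tgfb2 at 0.28 and Acta2 at 0.15, for time on FEN-HFD, Mmp2 at 0.057 and Tgfb1 at -0.0048, and for the difference, Mmp9 at -0.25. With mice left out they were, at 7 days, Acta2 (-0.66 to 0.19), Ctgf (-0.10 to 0.37), Fbn1 (-0.20 to 0.17), Lama2 (-0.10 to 0.19), Sparc (-0.082 to 0.13), Tgfb1 (-0.030 to 0.28), Tgfb2 (-0.52 to 0.077) and Thbs1 (-0.45 to 0.16). For time on FEN-HFD they were Acta2 (-0.40 to 0.066), Dcn (-0.061 to 0.13), Loxl1 (-0.54 to 0.073), Loxl2 (-0.22 to 0.14), Mmp2 (-0.21 to 0.10), Mmp9 (-0.46 to 0.12) and Timp2 (-0.16 to 0.056). The rest were Loxl2 for fenretinide at 20 weeks (-0.49 to 0.083), Tgfb1 for time on the HFD (-0.16 to 0.016), and Mmp9 (-0.17 to 0.44) and Timp3 (-0.090 to 0.082) for the difference.

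No paired analysis was possible because no mouse number is shared between groups. Depth limits Timp1, Mmp13, Lox and Ankrd1, which had too few counts for a test in at least 2 comparisons.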
